A study of Mus musculus with 6 samples.

Results

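The markers described here are 10 genes used to recognise bile duct cells (cholangiocytes) and liver progenitor cells: Krt7, Krt8, Krt18, Krt19, Epcam, Sox9, Spp1, Pkhd1, Prom1 and Cdh1. They were listed by name, and each was read from the probe set with its symbol that had the highest mean over all 6 arrays; 9 of the 10 were measured, among 18193 genes in all. Spp1 had no probe set under its symbol in the platform annotation used here and was not analysed here. The samples were whole livers of CYP2D6-humanized mice, a C57BL/6 line with a transgene for the human cytochrome P450 CYP2D6, an enzyme of drug metabolism. They represent 3 stages (pre-pregnancy, day 21 of gestation, day 7 after birth, called postpartum here), each by 2 livers with an array of its own, which the labels call biological replicates. All 3 groups carry the transgene, and no group without it was analysed. What drives the transgene, how old the animals were and when in the day they were sampled was not found in the sources used here. The stages thus cannot be told apart from age or collection time, if these differed.

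Cholangiocytes line the ducts that carry bile out of the liver, and they make up a small share of its cells beside the hepatocytes. Keratins are the intermediate filaments of epithelia and assemble as pairs of a type I and a type II chain: Krt8 (type II) with Krt18 (type I) in hepatocytes and cholangiocytes, and Krt7 (type II) and Krt19 (type I) in duct cells but not normally in hepatocytes. Sox9 is a transcription factor of duct and progenitor cells, Epcam a surface adhesion protein of duct cells, Pkhd1 the fibrocystin gene of the primary cilium of duct cells, and Prom1 the pentaspan membrane protein CD133, used to sort liver progenitor cells. Cdh1 encodes E-cadherin, the calcium-dependent adhesion protein of epithelia, which hepatocytes of the periportal zone also carry. A whole-liver array weighs all of these cells together, so a change in the number of duct cells and a change in RNA per cell cannot be told apart.

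The promoters of 3 members are shown. Krt8 and Krt18 are neighbours on chromosome 15 whose products pair but whose levels parted on both pregnant arrays. Prom1 is the marker with the largest change. Of the 10 genes, 7 had an entry in the RefSeq promoter table (build GRCm38.p6), which spans 250 bases before to 50 after a gene's start; Krt19, Sox9 and Cdh1 had none there. Sequences run 5′ to 3′ on the gene's strand, and capitals mark matches, on either strand, to the letters searched.
Krt8, chr15:102004293-102004592, strand -: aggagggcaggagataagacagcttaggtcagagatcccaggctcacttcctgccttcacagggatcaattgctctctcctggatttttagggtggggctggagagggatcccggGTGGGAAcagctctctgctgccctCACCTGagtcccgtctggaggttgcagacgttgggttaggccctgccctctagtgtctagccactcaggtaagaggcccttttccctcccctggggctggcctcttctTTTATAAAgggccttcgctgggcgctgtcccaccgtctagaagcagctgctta
Krt18, chr15:102027966-102028265, strand +: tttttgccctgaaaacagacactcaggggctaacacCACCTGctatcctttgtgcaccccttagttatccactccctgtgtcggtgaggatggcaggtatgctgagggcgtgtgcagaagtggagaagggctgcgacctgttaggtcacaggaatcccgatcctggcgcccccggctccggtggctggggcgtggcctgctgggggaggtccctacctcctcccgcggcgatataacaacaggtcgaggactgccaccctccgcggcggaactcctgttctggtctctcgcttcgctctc
Prom1, chr5:44101687-44101986, strand -: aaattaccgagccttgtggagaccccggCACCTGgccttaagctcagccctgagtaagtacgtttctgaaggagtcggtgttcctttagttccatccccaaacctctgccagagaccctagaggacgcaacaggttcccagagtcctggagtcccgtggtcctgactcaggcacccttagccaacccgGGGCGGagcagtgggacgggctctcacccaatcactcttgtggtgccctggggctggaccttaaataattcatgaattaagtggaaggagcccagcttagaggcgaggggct
The motifs searched, with the share of 32851 promoters of the same length that hold them, were CACCTG (the E-box bound by Snail factors, 20.2%), GGGCGG (Sp1 box, 35.7%), TATAAA (the box bound by TBP, 13.6%), GTGGGAA (RBPJ, 6.38%), GGAATG (TEAD, 14.7%), ACAATG (SOX core, 12.6%) and CAAAGTCCA (HNF4A, 0.475%). CACCTG was found in the Krt8, Krt18 and Prom1 windows. The Krt8 window alone of these 3 held GTGGGAA and TATAAA, the latter in both orientations, overlapping. The Prom1 window also held GGGCGG. The second Prom1 entry, which is not printed, held none of these letters. A match is a description of the letters and not evidence that a factor binds.

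The 45101 probe sets of the 6 arrays had medians of 5.09 to 5.15 on the log2 scale, which is used for all levels below. The lowest correlation across genes within a replicate pair was 0.994, and no 2 arrays were identical. The number of arrays limits the precision. The 13 hepatocyte markers measured (of 14 listed), albumin among them, had mean log2 levels of 13.84 to 13.97 over the arrays, so the liver label was borne out. On postpartum replicate 1, 6 genes lay more than 1 log2 unit above every other array. Dmbt1, a secreted scavenger receptor of mucosal epithelia, was at 9.94 there and at 3.28 to 3.71 on the other 5 arrays. The genes with the next largest gaps above the other arrays were Slc26a3, a chloride-bicarbonate exchanger (6.59, with no other array above 3.76), Krt19 itself, the mucins Muc3 (5.92 against at most 4.37) and Muc1 (6.25 against at most 5.07), and Klf5, an epithelial transcription factor (5.4 against at most 4.25). These 6 genes were picked after their values were seen, and on the other arrays such genes numbered 0 to 18. Because Krt19 is one of them, the postpartum differences of all members are given with and without that array.

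The members fell into bright and dim probe sets. Krt18, Krt8 and Cdh1 were bright: only 3.51%, 4.73% and 9.9% of genes, respectively, had a higher mean level. Hepatocytes are known to express these 3 too, and which cells gave the levels of the other members was not tested. Prom1 was intermediate, with 32.3% of genes brighter, and Pkhd1 lay in the middle, at 50.3%. Epcam, Krt19, Sox9 and Krt7 were dim, with 59.6%, 60.6%, 73% and 77.8% of genes brighter, and Sox9 and Krt7 stayed below the median of all probe sets (5.12) on every array. Brightness depends on the probes as well as on the transcript, so these shares describe each probe set and do not rank the transcripts.

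**Figure D1:**
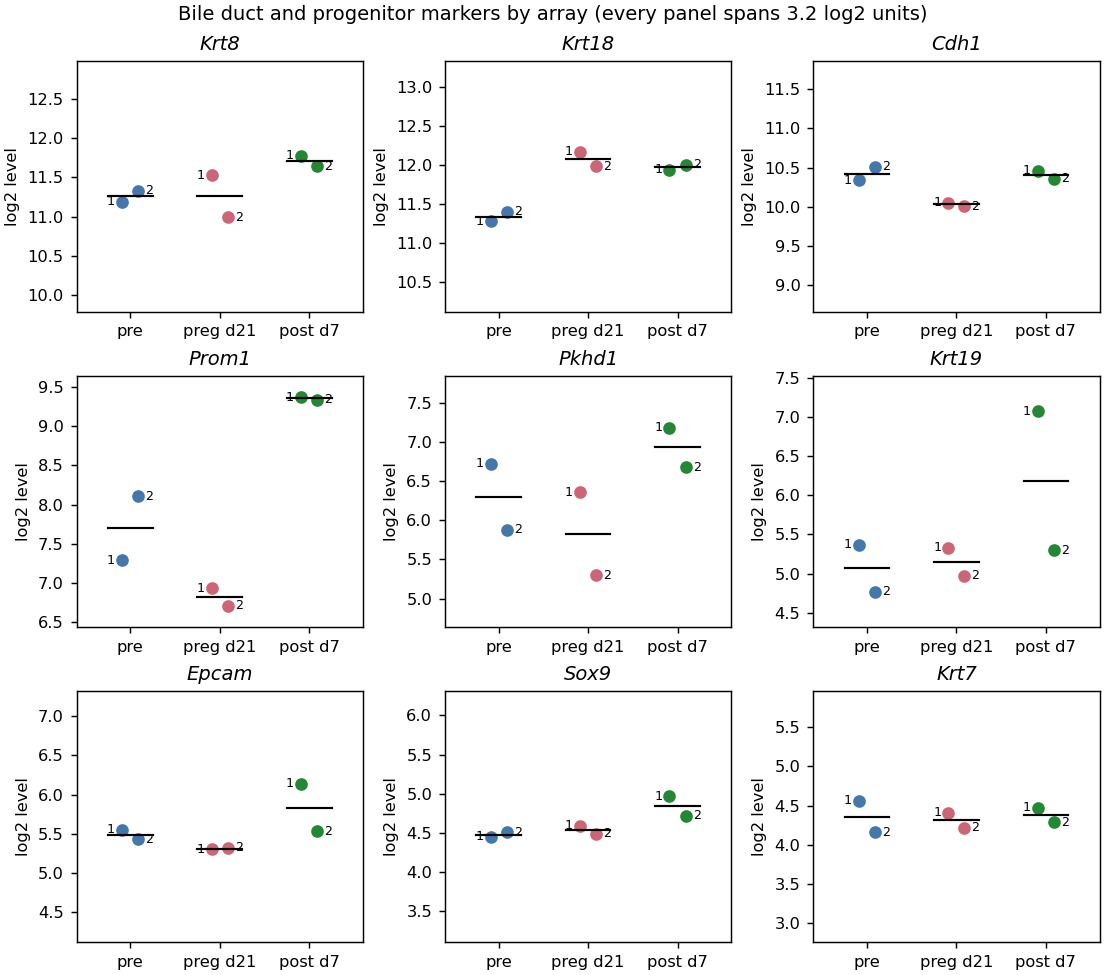
Log2 level of each measured member on every array (points, labelled by replicate number; bars are the means of 2 arrays), by stage, with the same span on every vertical axis. Prom1 was near 9.4 on both postpartum arrays and below 8.2 on the other 4, Krt18 was lower before pregnancy than later, and Krt19 was high on postpartum replicate 1 alone.

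The first comparison, of day 21 livers with those sampled earlier, asks which markers differed in late gestation. Krt18 rose 1.66-fold, and Prom1 and Cdh1 fell 1.84-fold and 1.31-fold. The duct keratins Krt7 and Krt19, Epcam, Sox9, Pkhd1 and Krt8 did not pass the test. In all, 3 of 9 members were called by limma at an adjusted p under 0.05, 1 higher and 2 lower, where 13.7% of all genes were called (5.46% higher and 8.25% lower). The members' median log2 difference was -0.045, against 0.045 for all genes.

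Krt18 stood at 11.28 and 11.4 before pregnancy, at 12.17 and 11.98 in pregnancy and at 11.94 and 12 postpartum. Both arrays of each later stage lay above both pre-pregnancy arrays, and the later stages overlapped each other. Its rise in pregnancy was 0.735 ± 0.112 (SE) on the log2 scale (limma adjusted p = 0.00771). Without pre-pregnancy replicate 1 the call was lost (0.675, adjusted p = 0.0779), and it was kept without each of the other 5 arrays.

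Krt8, the partner chain of Krt18, stood at 11.19 and 11.33 before pregnancy, at 11.53 and 10.99 in pregnancy and at 11.78 and 11.64 postpartum. The pregnant arrays fell on either side of the pre-pregnancy pair, so no difference was seen there (0.00 ± 0.174), while both postpartum arrays were above all others. Its other 2 probe sets gave 0.005 and -0.155 in pregnancy. The pair can be followed within each array, as the log2 level of Krt18 less that of Krt8, set to 0 at the pre-pregnancy mean. That quantity was 0.01 and -0.01 before pregnancy, then 0.56 and 0.91 on the pregnant arrays, and 0.08 and 0.28 postpartum. Krt18 was thus high relative to Krt8 on both pregnant arrays and nearer to the starting ratio postpartum, with no overlap between the 3 stages. The difference of 0.735 between pregnancy and pre-pregnancy equals the rise of Krt18 itself, since Krt8 differed by 0.00. For it the two-sided exact permutation p was 0.333, the smallest that 2 arrays against 2 allow, so this test could not decide. With the other Krt8 probe sets the pregnant values were 0.64 and 0.82, and 0.75 and 1.04. Krt8 was read from probe sets whose names end in _x_at or _a_at, which mark probes that can match other sequences or several transcripts, respectively.

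**Figure D2:**
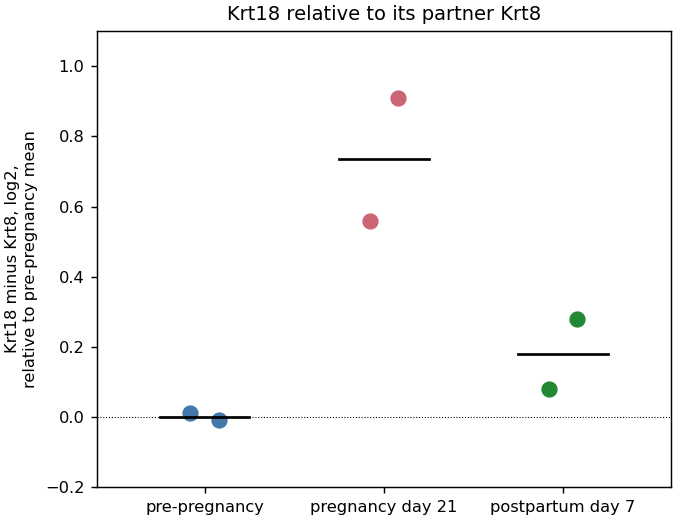
Log2 level of Krt18 minus that of Krt8 on each array, relative to the mean of the pre-pregnancy arrays (points are arrays, bars are means of 2). The pregnant arrays sit at 0.56 and 0.91 and the postpartum arrays at 0.08 and 0.28.

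Prom1 stood at 7.29 and 8.11 before pregnancy and at 6.93 and 6.71 in pregnancy. Both pregnant arrays were lower than both earlier ones, but the pre-pregnancy replicates were themselves 0.82 apart. The fall was -0.88 ± 0.235 (adjusted p = 0.0461). It was -0.47 without pre-pregnancy replicate 2 (adjusted p = 0.114), and the call was lost without every array except pre-pregnancy replicate 1.

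Cdh1 stood at 10.34 and 10.51 before pregnancy, at 10.05 and 10.01 in pregnancy and at 10.46 and 10.36 postpartum. The pregnant arrays were the lowest, and the other 2 stages overlapped. The fall in pregnancy was -0.395 ± 0.108 with an adjusted p of 0.0499, at the edge of the threshold, and the call was lost without any 1 of the 6 arrays (-0.48 to -0.31). Both called falls were also lost after repeated quantile normalization (Prom1 -0.81, adjusted p = 0.067; Cdh1 -0.34, adjusted p = 0.0897).

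The duct markers gave no call in pregnancy. Pkhd1 stood at 6.72 and 5.88 before pregnancy and at 6.36 and 5.3 in pregnancy (-0.47 ± 0.377, adjusted p = 0.435). Its replicates differed by 0.84 and 1.06, more than the stages did. Krt19 stood at 5.37 and 4.77 before pregnancy and at 5.33 and 4.97 in pregnancy, a difference of 0.08 ± 0.491 (adjusted p = 0.928). Epcam was at 5.55 and 5.43, then at 5.3 and 5.32 (-0.18 ± 0.184, adjusted p = 0.544). Its arrays did not overlap, the pregnant ones being lower, as for 26% of all genes. Sox9 was at 4.45 and 4.51, then at 4.59 and 4.49, and Krt7 at 4.56 and 4.16, then at 4.41 and 4.22. Both are dim, and neither passed the test (adjusted p = 0.764 for Sox9 and 0.869 for Krt7).

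The second comparison, postpartum livers against pregnant ones, asks which markers differed after birth. Prom1 rose 5.80-fold, and it was the only member called, 1 of 9, where 3.29% of all genes were called and 2.41% were called higher. Prom1 was at 9.37 and 9.34 postpartum, against 6.93 and 6.71 in pregnancy. The 2 postpartum replicates were 0.03 apart, and both stood above all 4 other arrays. The rise was 2.535 ± 0.235 (adjusted p = 0.0032), and 0.0605% of genes had a larger log2 change in either direction. With each array left out in turn it was 2.43 to 2.65 and kept its call 6 of 6 times (adjusted p = 0.00383 to 0.0289). Prom1 has a single probe set, so a second reading of the gene was not available here.

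In this comparison 6 of 9 members, Krt8, Epcam, Sox9, Pkhd1, Prom1 and Cdh1, had both postpartum arrays above both pregnant ones, and 0 had both below, where 25.1% of all genes had non-overlapping arrays with the postpartum ones higher. The members' median log2 difference was 0.45, against -0.01 for all genes. At an unadjusted p under 0.05, 6 of 9 members passed, as did 20.7% of all genes. The largest uncalled difference was that of Pkhd1, at 7.18 and 6.68 postpartum against 6.36 and 5.3 (1.1 ± 0.377, adjusted p = 0.157). It was 0.57 and 1.63 without pregnancy replicates 2 and 1, respectively, and 0.85 without postpartum replicate 1. Krt19 was at 7.07 and 5.3 postpartum against 5.33 and 4.97, a difference of 1.035 ± 0.491 (adjusted p = 0.283). Postpartum replicate 2 lay within the pregnant range and replicate 1 far above it: the difference was 0.15 without replicate 1 and 1.92 without replicate 2, where it passed the test (adjusted p = 0.0348). The Krt19 value thus rests on postpartum replicate 1.

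Epcam, at 6.14 and 5.53 postpartum, was 0.525 ± 0.184 above pregnancy (adjusted p = 0.164), and 0.22 above it without postpartum replicate 1. The dimmer Epcam probe set differed by -0.18, in the other direction. Sox9, at 4.97 and 4.72, was 0.305 ± 0.118 above pregnancy (adjusted p = 0.199); its dimmer probe sets gave 0.035 and 0.135, and without postpartum replicate 1 it was 0.18. Krt8 differed by 0.45 ± 0.174 (adjusted p = 0.199), with 0.38 and 0.53 from its other probe sets, and without pregnancy replicate 1 it was 0.72 higher and called (adjusted p = 0.0451). Cdh1 was 0.38 ± 0.108 higher (adjusted p = 0.106), Krt18 differed by -0.105 ± 0.112 (adjusted p = 0.648) and Krt7, at 4.47 and 4.29, by 0.065 ± 0.154 (adjusted p = 0.855). Without postpartum replicate 1 these differences were 0.38 for Krt8, 0.33 for Cdh1, -0.075 for Krt18 and -0.025 for Krt7, and that of Prom1 was 2.52 (adjusted p = 0.0289).

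**Figure D3:**
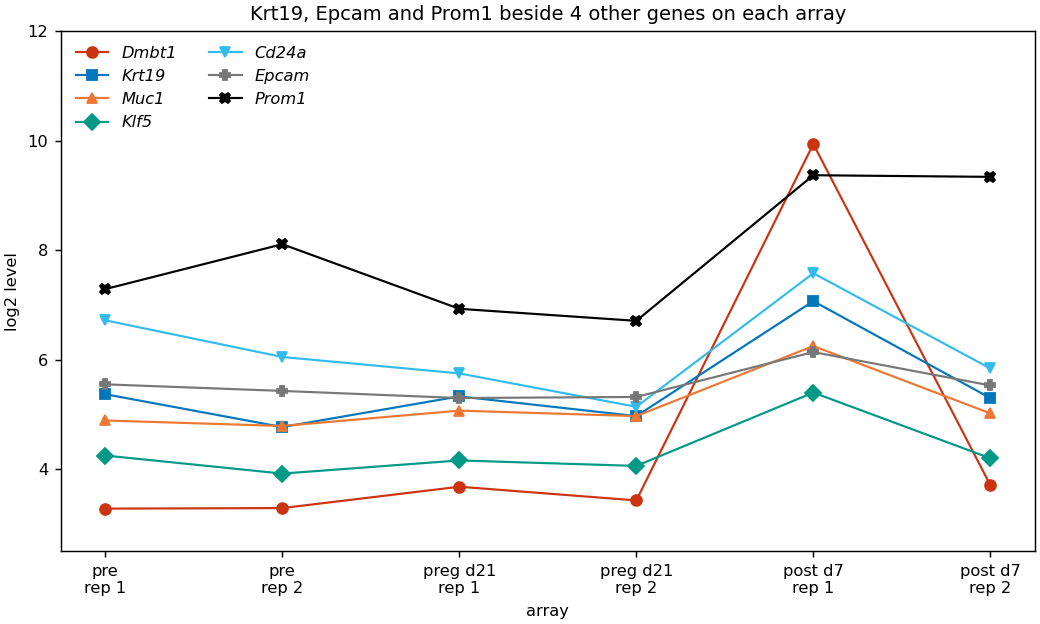
Log2 levels on the 6 arrays of 3 members, Krt19, Epcam and Prom1, beside Dmbt1, Muc1, Klf5 and Cd24a; the lines join arrays only to guide the eye. Dmbt1 reached 9.94 and Krt19 7.07 on postpartum replicate 1 alone, whereas Prom1 was at 9.37 and 9.34 on both postpartum arrays.

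Prom1 and Krt19 thus differed in how the postpartum replicates behaved. On postpartum replicate 1 less replicate 2, Krt19 was 1.77 higher, a gap that 0.022% of genes exceeded in size, Epcam 0.61 higher (1.34% exceeded it) and Pkhd1 0.50 higher (2.68%). Prom1 was 0.03 higher, a gap that 83.4% of genes exceeded. In all, 8 of 9 members were higher on replicate 1, as were 45.9% of all genes, and Krt18 was 0.06 lower. On the pregnant arrays 8 of 9 members were also higher on replicate 1 (53.2% of all genes). Before pregnancy 4 of 9 were (51%). Krt7, Krt19 and Pkhd1 were higher on replicate 1 at all 3 stages. Postpartum, 8 of 9 stellate and fibroblast, 7 of 9 endothelial, 7 of 8 mesothelial and 6 of 7 pancreatic acinar markers were higher on replicate 1. Of hepatocyte markers 4 of 13 were, and of macrophage markers 1 of 10. In a list of other bile duct genes 11 of 21 were higher on replicate 1, with a median gap of 0.03, and 3 were over 0.5 higher. These 3 were Dmbt1 (6.23 higher), Cd24a, a surface glycoprotein used to sort progenitors (1.74 higher), and Klf5 (1.2 higher).

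The third comparison, postpartum livers against those taken before pregnancy, asks whether the markers had returned. This comparison shares arrays with both others, so its values are not independent of theirs. Prom1 was 3.15-fold higher than before pregnancy (log2 difference 1.655 ± 0.235, adjusted p = 0.0096) and Krt18 1.55-fold higher (0.63 ± 0.112, adjusted p = 0.0192). These were 2 of 9 members, both higher, where 7.66% of all genes were called and 3.91% were called higher. Prom1 ranged from 1.245 to 2.065 with an array left out, and its call was lost without postpartum replicate 2 (adjusted p = 0.0589). Krt18 ranged from 0.57 to 0.69 and kept its call only without either pregnant array. Without postpartum replicate 1, Prom1 was 1.64 higher (adjusted p = 0.0463) and Krt18 0.66 higher (adjusted p = 0.068).

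For 4 of 9 members, Krt8, Krt18, Sox9 and Prom1, both postpartum arrays lay above both pre-pregnancy ones, where 30% of all genes did. Krt8 differed by 0.45 ± 0.174 (adjusted p = 0.17) and Sox9 by 0.365 ± 0.118 (adjusted p = 0.108). Krt19 differed by 1.115 ± 0.491 (adjusted p = 0.229), and by 0.23 without postpartum replicate 1. Pkhd1 (0.63 ± 0.377, adjusted p = 0.384) and Epcam (0.345 ± 0.184, adjusted p = 0.323) overlapped between these stages. Cdh1 differed by -0.015 ± 0.108 and Krt7 by 0.02 ± 0.154, so neither was distinguishable from its pre-pregnancy level. Without postpartum replicate 1 the difference of Epcam was 0.04, that of Pkhd1 0.38, that of Sox9 0.24 and that of Krt8 0.38. Cdh1 was then at -0.065 and Krt7 at -0.07.

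**Figure D4:**
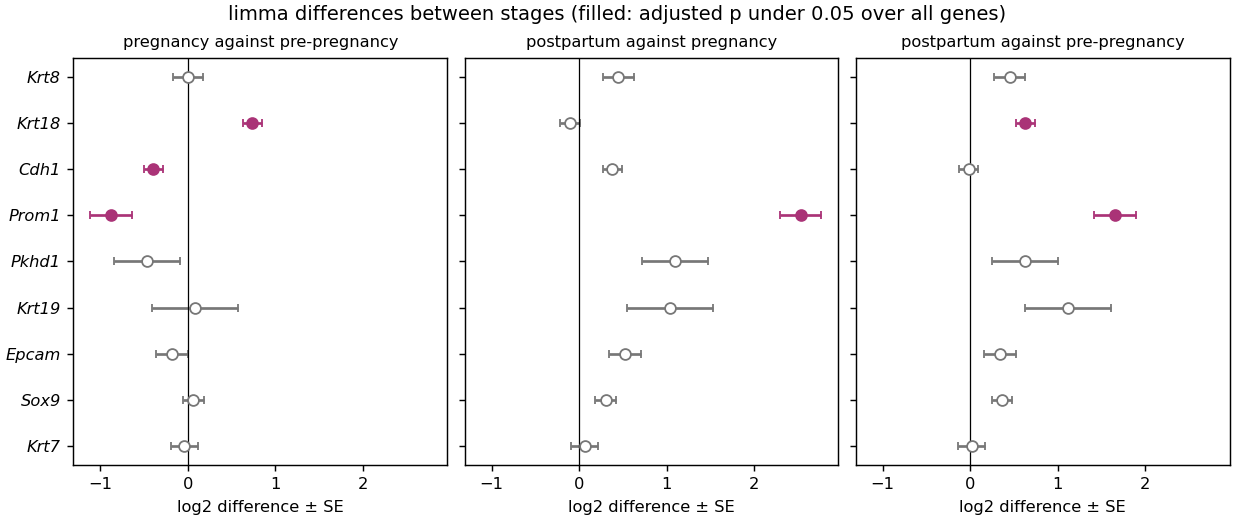
Log2 difference of each member in the 3 comparisons with its standard error from limma (filled points passed an adjusted p of 0.05 over all genes, open points did not). Prom1 is the only member called in all 3, with 2.535 as its largest difference, and Krt18 is called in both comparisons with pre-pregnancy.

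By order of stage means, Prom1, Pkhd1, Epcam, Cdh1 and Krt7 were lowest in pregnancy. Prom1 ran from pregnancy through pre-pregnancy to postpartum, with each step called in the main fit. Both steps lost their calls in alternatives given above. The call between pre-pregnancy and pregnancy was also lost with the mean of all probe sets (limma adjusted p = 0.0503). With only the 2 groups compared it was lost too (limma adjusted p = 0.072). For Pkhd1 the same order held, with no step called and replicate gaps of 0.5 to 1.06. For Epcam it held too, with no step called. Cdh1 was lowest in pregnancy and its pre-pregnancy and postpartum means, 10.425 and 10.41, did not differ beyond their spread. Krt18 was lowest before pregnancy and its pregnant and postpartum means, 12.075 and 11.97, were not told apart by the test. For Krt8, Krt19, Sox9 and Krt7 no neighbouring means were told apart.

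The genes whose levels followed the called members most closely over the 6 arrays were sought among 1110 or 1111 genes with a mean of at least 6.38 and a range of at least 1 log2 unit. They are given as a description. For Prom1 they were Cbr1, a carbonyl reductase (r = 0.983), Got1, the cytosolic aspartate aminotransferase (0.979), and Ggt6, of the gamma-glutamyltransferase family (0.975). Ggt6 stood at 7.02 and 7.49 before pregnancy, at 6.33 and 6.11 in pregnancy and at 8.24 and 8.07 postpartum. Got1 stood at 11.14 and 11.5, at 10.87 and 10.57, and at 11.98 and 11.88 at these stages. All 3 were lowest in pregnancy and highest postpartum on both arrays, as Prom1 was. Those for Krt18 were Pglyrp2, a peptidoglycan-hydrolysing amidase secreted by liver (0.995), Fam20a (0.991) and the neutral amino acid transporter Slc1a4 (0.989). Pglyrp2 stood at 10.42 and 10.45 before pregnancy, at 11.62 and 11.39 in pregnancy and at 11.32 and 11.36 postpartum. For Cdh1 they were Mup10 (0.975), Abtb2 (0.973) and Cad, the first enzymes of pyrimidine synthesis (0.969). Mup10 belongs to a family of near-identical genes, so its probe set may read several of them.

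**Figure D5:**
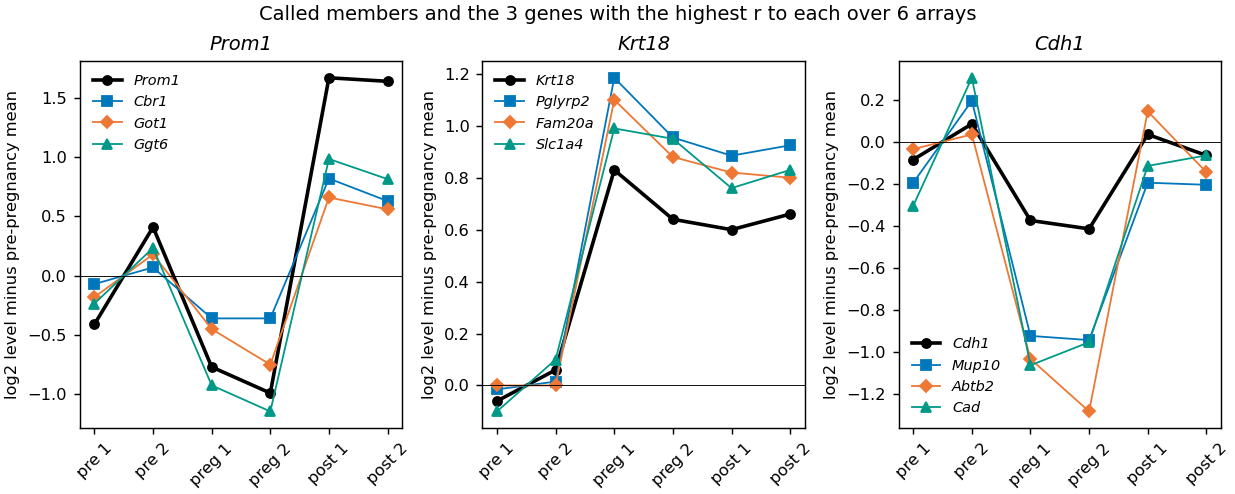
Log2 levels on each array relative to the pre-pregnancy mean, for each called member (thick black line) and the 3 genes with the highest Pearson r to it. Prom1 moved further than its companions postpartum. The companions had to span at least 1 log2 unit over the arrays, which Krt18 (0.89) and Cdh1 (0.5) did not.

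Other genes of the same cells and pathways were taken from lists. Of 25 other bile duct genes 21 were measured, and 2 rose in pregnancy and 0 fell, beside 5.46% and 8.25% of all genes. They were Tspan8, a tetraspanin of epithelia, from 5 and 5.36 to 5.8 and 6.23 (0.835 ± 0.175, adjusted p = 0.0219), and Cldn3, a tight junction claudin that is bright in this tissue, from 10.71 and 10.93 to 11.39 and 11.3 (0.525 ± 0.122, adjusted p = 0.0296). The Tspan8 call was lost without pre-pregnancy replicate 1 or pregnancy replicate 2, and that of Cldn3 without any pre-pregnancy or pregnant array. In limma's test 0 of the 21 were called in postpartum against pregnancy and 0 against pre-pregnancy, with 4 and 5 at an unadjusted p under 0.05, as were 20.7% and 22.9% of all genes. Their median log2 differences were 0.115, 0.06 and 0.155 in these comparisons, in the order given, beside 0.045, -0.01 and 0.025 for all genes. Dmbt1, on this list, was 3.27 ± 1.58 above pregnancy and 3.54 ± 1.58 above pre-pregnancy postpartum. Both differences were uncalled and rested on postpartum replicate 1. Onecut1, the HNF6 transcription factor of liver and duct development, was at 8.65 and 8.82 before pregnancy, at 6.09 and 8 on the pregnant arrays and at 7.62 and 8.04 postpartum. Its pregnant replicates were 1.91 apart, and its difference from pre-pregnancy was -1.69 ± 0.506 (adjusted p = 0.0648).

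Of 10 progenitor and fetal liver genes, 1 rose in pregnancy and 0 fell, again beside 5.46% and 8.25% of all genes. It was Tnfrsf12a, the receptor of the cytokine TWEAK, which drives ductular progenitor growth. Tnfrsf12a stood at 7.44 and 7.24 before pregnancy, at 8.71 and 8.01 in pregnancy and at 7.88 and 8.25 postpartum. The rise was 1.02 ± 0.228 (2.03-fold, adjusted p = 0.0265), with 0.67 to 1.37 over the arrays left out and no call once a pre-pregnancy array or pregnancy replicate 1 was left out. By limma 0 of the 10 were called in postpartum against pregnancy and 0 in postpartum against pre-pregnancy, beside 3.29% and 7.66% of all genes. At an unadjusted p under 0.05, 0 and 2 of the 10 passed in these comparisons, beside 20.7% and 22.9% of all genes. Afp, the fetal liver albumin relative, stayed dim at 4.58 to 4.99 on all arrays.

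Of 12 genes of the Notch and Yap pathways, which set duct cell fate, limma called 0 in pregnancy against pre-pregnancy, with 3 at an unadjusted p under 0.05, as were 31% of all genes. Ccn1, a matricellular target of Yap, rose postpartum and was the 1 gene of 12 called in both other comparisons. Of all genes 3.29% were called in postpartum against pregnancy and 7.66% in postpartum against pre-pregnancy. Ccn1 stood at 6.75 and 6.83 before pregnancy, at 6.78 and 6.64 in pregnancy and at 7.2 and 7.49 postpartum (0.635 ± 0.127 against pregnancy, adjusted p = 0.0428). That call was lost without any 1 array, and the 0.555 against pre-pregnancy (adjusted p = 0.0409) kept its call only without either pregnant array. Of the same list, Ccn2 differed postpartum by -0.73 ± 0.481 against pregnancy and by -0.015 ± 0.481 against pre-pregnancy, with neither called. Ankrd1 differed by 0.17 ± 0.178 and 0.27 ± 0.178, also uncalled. Hes1 was lower postpartum, by -0.605 ± 0.211 against pregnancy (adjusted p = 0.161) and -0.805 ± 0.211 against pre-pregnancy (adjusted p = 0.0603). Yap1 differed by 0.335 ± 0.131 in pregnancy (adjusted p = 0.128), Notch2 by 0.155 ± 0.131 (0.46) and the Notch ligand gene Jag1 by -0.20 ± 0.121 (0.301).

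Of 16 genes for epithelial junctions and keratin linkers, 2 fell in pregnancy, the desmosomal cadherins Dsg2 and Dsc2, and 1 rose, Plec, the plectin gene that anchors keratin filaments. These 3 of 16 stand beside the 13.7% of all genes called. Dsg2 went from 11.66 and 11.77 to 11.11 and 11.17 (-0.575 ± 0.101, adjusted p = 0.0119). Dsc2 went from 9.55 and 9.49 to 9.13 and 8.97 in pregnancy (-0.47 ± 0.118, adjusted p = 0.0372) and to 8.65 and 8.44 postpartum (-0.975 ± 0.118 against pre-pregnancy, adjusted p = 0.00611). Plec went from 8.71 and 8.85 to 9.23 and 9.41 in pregnancy (0.54 ± 0.116, adjusted p = 0.0238) and to 9.43 and 9.56 postpartum (0.715 ± 0.116 above pre-pregnancy, adjusted p = 0.0144). All of these calls were lost without pre-pregnancy replicate 1, and only the postpartum call of Dsc2 held without each other array. The Dsg2 call was also lost without pre-pregnancy replicate 2, and the pregnancy call of Dsc2 without any pre-pregnancy or pregnant array. Plec also lost both its calls without pre-pregnancy replicate 2. Its pregnancy call was lost without pregnancy replicate 2 too, and its postpartum call without postpartum replicate 2. Ctnnb1, the beta-catenin that binds E-cadherin inside the cell, differed by -0.115 ± 0.111 in pregnancy (adjusted p = 0.521). In postpartum against pregnancy limma called 0 of the 16, beside 3.29% of all genes. At an unadjusted p under 0.05, 5 of the 16 passed, as did 20.7% of all genes. Against pre-pregnancy the postpartum calls were 1 higher and 1 lower of the 16, beside 7.66% of all genes called.

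Markers of other cell types were read on the same arrays. Mesothelial cells, which also carry Krt8, Krt18 and Krt19, were near background: 6 of 8 markers lay below the median of all probe sets on every array, the mean level of the list was 4.41 to 4.72, and it was 4.70 and 4.45 on the postpartum arrays. Of that list Upk1b rose in pregnancy (0.965 ± 0.245, adjusted p = 0.039). Of 9 endothelial markers, 3 fell in pregnancy (8.25% of all genes did), Emcn, Tek and Kdr (-0.46 to -0.70), and the list's mean went from 8.24 and 8.03 to 7.74 and 7.63, then 7.77 and 7.64. Of 10 macrophage markers Timd4 fell in pregnancy (-0.905 ± 0.1, adjusted p = 0.00262) and was lower postpartum than before pregnancy (-0.61, adjusted p = 0.0147). Marco, a scavenger receptor of macrophages, went the other way: it was 0.655 ± 0.202 higher in pregnancy (adjusted p = 0.0695) and rose by 1.03 postpartum against pre-pregnancy (adjusted p = 0.0248). The macrophage list's mean was 8.09 and 8.14, then 8.09 and 7.82, then 8.11 and 8.23. Of 9 stellate and fibroblast markers Lrat fell in pregnancy, and the list's mean ran from 8.11 to 8.56 over the arrays. Of 7 measured pancreatic acinar genes, whose organ also has ducts, Cela3b was higher in pregnancy (3.035 ± 0.165) and Cela1 lower (-1.18 ± 0.112), while the defining gene Cpa1 lay at 3.91 to 4.42 throughout. Cela3b fell postpartum against pregnancy (-2.815, adjusted p = 0.000688), and Cela1 was lower postpartum than before pregnancy (-1.045, adjusted p = 0.00443). Of the 13 hepatocyte markers, Apob, the apolipoprotein B gene, rose in pregnancy (0.58 ± 0.0982, adjusted p = 0.0108) and was 0.535 higher postpartum than before pregnancy (adjusted p = 0.0208), and the asialoglycoprotein receptor gene Asgr1 rose in pregnancy (0.395 ± 0.108, adjusted p = 0.0492). The pregnancy calls of Timd4, Cela3b and Cela1 held with each array left out. Those of Upk1b, Emcn, Tek, Kdr, Lrat and Asgr1 were lost without either pre-pregnancy array. Emcn and Kdr also lost theirs without either pregnant array, and Upk1b and Tek without pregnancy replicate 2. Asgr1 also lost its call without pregnancy replicate 2 or either postpartum array. The pregnancy call of Apob was lost without pre-pregnancy replicate 1. Against pre-pregnancy, the postpartum calls of Marco, Timd4 and Apob were lost without any 1 of the 4 arrays compared, and that of Cela1 without pre-pregnancy replicate 1. Their part in the differences of the duct markers was not tested.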

How the data were processed

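Biotin-labelled target was made from 250 ng of total RNA per liver, extracted with Trizol, per the labels' protocols, and hybridised to 1 Affymetrix array each. The authors deposited log2 values made with RMA and Affymetrix Power Tools, per the submitters' processing notes; their versions and settings were not found there, and the log2 base is inferred from the values. RMA as usually run makes array distributions alike and compresses dim differences.

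Of 45101 probe sets, 34945 had 1 gene symbol, 932 several and 9160 none here, and 64 were controls, which were left out; 0 symbols changed on update. The brightest probe set per gene (mean of 6 arrays) was kept. All 18193 genes were fitted with limma 3.58.1 in R 4.3.3 (3 residual and 4.8 prior degrees of freedom, two-sided, Benjamini-Hochberg over all genes, threshold 0.05); SE is moderated. The fit was tested on simulated data with 200 of 18193 genes changed, fewer than were called here. It recovered 2.4 to 4.8% of changes of 0.5 log2 and 68 to 69.2% of changes of 1 log2 over the 3 comparisons. False calls were 4.79 to 8.11% of all calls. At that setting a change of 0.5 mostly went uncalled.

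Named genes were all members, called genes of each list (at most 6, or 4 for other cell types) with Onecut1, Jag1, Notch2 and Yap1 whatever their values, and the 3 genes with the highest r to each called member; genes given without a call, and those on which postpartum replicate 1 stood apart, were added after their values were seen. Members and lists were chosen with earlier results of these data known. Alternatives were the mean of all probe sets, every probe set by itself, repeated quantile normalization, median centring, a filter on dim genes (40th percentile, 5.51), a trended robust variance, a replicate block, only the 2 groups compared, and leaving out each array; a group left with 1 array is assumed to vary like the others.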

Additional observations from a re-analysis of the deposited data

How the results depend on the processing

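Over all genes, limma called 2494, 599 and 1393 when pregnancy was set against pre-pregnancy, when postpartum was set against pregnancy and when it was set against pre-pregnancy. With every probe set tested the outer counts were 4474 and 2677 (of 34945 tested), and with only the 2 groups compared the middle one was 203. Leaving out 1 array gave 323 to 1977, 114 to 528 and 73 to 1582. In postpartum against pregnancy 439 were higher and 160 lower, and 292 and 175 after repeated quantile normalization.

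The members called, 3, 1 and 2, were 1 in pregnancy against pre-pregnancy after repeated quantile normalization and with only the 2 groups compared, and 1, 1 to 2, and 1 to 2 with 1 array left out. The labels name no pairing by replicate number, and same-numbered deviations correlated over all genes at 0.0285, 0.111 and -0.0273. Whether same-numbered livers shared handling was not tested. With the replicate block 2612, 574 and 1567 genes and 2, 2 and 3 members were called; Pkhd1 was gained in both postpartum comparisons (adjusted p = 0.0152 and 0.0454) and Cdh1 lost in pregnancy (adjusted p = 0.0626).

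Uncalled differences near 0 changed sign. In pregnancy Sox9 was -0.003 with the mean of probe sets and -0.052 after repeated quantile normalization, where Krt19 was -0.003; Krt7 was -0.012 there in postpartum against pre-pregnancy. With 1 array left out, Krt7 ran from -0.245 to 0.155, -0.03 to 0.16 and -0.18 to 0.22 over the 3 comparisons, Krt19 from -0.22 to 0.38 and Pkhd1 from -1 to 0.06 in pregnancy against pre-pregnancy, and Cdh1 from -0.10 to 0.07 in postpartum against pre-pregnancy. The cause was not tested.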
